A study of Mus musculus with 6 samples.

Results

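Genes of DNA repair and DNA replication were followed in NIT-1 cells with and without cadmium. They were chosen by symbol: Atm, Atr, Brca1, Brca2, Ogg1, Apex1, Xpa, Xpc and Pcna, together with the Xrcc, Ercc, Fanc, Msh, Mlh, Parp, Mcm, Rad, Lig, Neil, Gins, Rfc and Rpa families and the DNA polymerase genes Pola, Pold, Pole and Polh to Polq. Of 18972 genes measured, 60 met this rule. The RefSeq annotation of the mouse genome holds 122 protein-coding genes of this kind. Of the rest, 54 lie on chromosomes 10 to 19, and Brca1, Apex1 and most mismatch repair genes among them are not analysed here. Mcm7, Parp1, Poln and Rad54b shared their array feature with another gene and were left out. A further 4 genes are not analysed here.

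NIT-1 is a line of mouse pancreatic beta cells, made from a tumour of mice that carried a viral large T antigen under an insulin promoter. Large T antigen binds the retinoblastoma protein and p53, which restrain the cell cycle. The cells of both groups grew in medium with fetal bovine serum, penicillin and streptomycin. In the control group they received 0 µmol/L CdSO4 and in the cadmium group 4 µmol/L CdSO4, each for 24 h after 24 h in 6-well plates. Biotin-labelled total RNA was hybridised to 6 arrays, 3 in each group, which the labels call biological replicates without saying whether they came from separate days or passages. P-values therefore measure the spread between these cultures. The series gives oxidative damage as the purpose of the cadmium treatment, and the comparison asks how the transcripts of repair and replication genes differed after it.

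Cells answer damaged DNA with kinases that sense it, with repair pathways that each handle a kind of lesion, and with replication factors that copy the strand afterwards. Oxidised bases are removed by base excision repair, bulky lesions by nucleotide excision repair, replication errors by mismatch repair, crosslinks by the Fanconi anaemia pathway, and double-strand breaks by end joining or homologous recombination. Cadmium is known to damage DNA indirectly and to impair repair proteins, several of which hold zinc, at the protein level, which an array of transcripts does not measure.

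Each gene has 1 log2 signal on each array. Group values are mean ± SD (n = 3), and a change is the cadmium mean minus the control mean. The base of the logarithm is inferred from the range of the values, and precision is limited by how few arrays there are. The median over genes was 4.13 to 4.14 on the control arrays and 4.17 to 4.18 on the cadmium arrays, so the median gene changed by 0.04. The 95th percentile of the negative control probes averaged 6.18 over the arrays and served as an approximate background bound. Of the 60 genes, 3 had both group means above this bound, 2 had 1 and 55 had 0. For these 55 a difference is given, but no fold change. Beta cell markers were also dim. All 9 that were measured lay below the bound in both groups, and 1 of them, the potassium channel gene Kcnj11, was higher with cadmium by 0.29, with Ins2, which encodes insulin, at 5.27 ± 0.10 in control and 5.29 ± 0.04 in cadmium arrays, and Pdx1, a beta cell transcription factor, at 4.25 ± 0.07 and 4.28 ± 0.09. Of the markers of other cells, 0 of 2 other islet, 0 of 3 immune and 0 of 2 endothelial genes passed the test described below, at 0, 0 and 1 with an unadjusted limma p under 0.05. In the exocrine list 2 of 6 were higher, at mean levels of 3.85 to 3.91 in control and 4.00 to 4.02 in cadmium arrays. Leaving out each array in turn ended the call of Kcnj11 in 5 of 6 cases, of the exocrine genes Ctrb1 in 4 and Cela2a in all 6. In the stromal list 1 of 2 was lower, Col3a1, which went from 9.07 to 8.06, at mean levels of the list of 7.05 to 7.15 and 6.47 to 6.68. Their part in the results was not tested.

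With cadmium, 10 of the 60 genes fell and 3 rose (limma with Benjamini-Hochberg adjustment over all 18972 genes, adjusted p under 0.05). The genes that fell were the damage kinase genes Atm and Atr, the replicative polymerase genes Pola1 and Pole, the clamp loader gene Rfc1, the recombination genes Brca2 and Rad54l, the nucleotide excision genes Xpa and Xpc, and Fancb of the Fanconi anaemia pathway. The genes that rose were Ercc1, Rad23b and Parp3. No change reached 1 on the log2 scale, the lowest being -0.68 for Pola1 and the highest 0.41 for Ercc1. Called genes made up 21.7% of the 60, against 12.2% of all genes tested and 13.3% of the 11679 protein-coding genes. Lower genes were 16.7% of the 60, against 5.72% of all genes and 8.31% of protein-coding genes, and higher genes 5% against 6.47% and 4.96%. Calls were more frequent among brighter genes, and 42 of the 60 lay at or above the median level of all genes. Tested among such genes alone, 12 of 42 members were called, or 28.6%, against 24.3% of 9486 genes, and 9 were lower, or 21.4%, against 12.4%. The median change of the 60 was -0.09, against 0.04 over all genes and 0.03 over protein-coding genes. The change was below 0 in 45 of the 60 and above 0 in 15. Among all called genes 53.05% were higher, or 38.0% after centring the arrays on their medians, and among called members 23.1% or 17.6%.

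The count depended on which array was left out. Leaving out control replicate 1 kept 7 of the 13 calls, and leaving out control replicate 2 kept 6. Leaving out cadmium replicate 2 kept 5, and leaving out cadmium replicate 3 kept 7. The count over all genes fell as well, from 2313 to 1191, 1142, 1151 and 1181 in that order. Leaving out control replicate 3 kept 11 of the 13 calls, with 13 members and 2123 genes called, and leaving out cadmium replicate 1 kept 10, with 11 members and 2361 genes called. Pola1, Pole, Atm, Parp3 and Ercc1, 5 genes in all, kept their calls without each of the 6 arrays in turn.

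**Figure D1:**
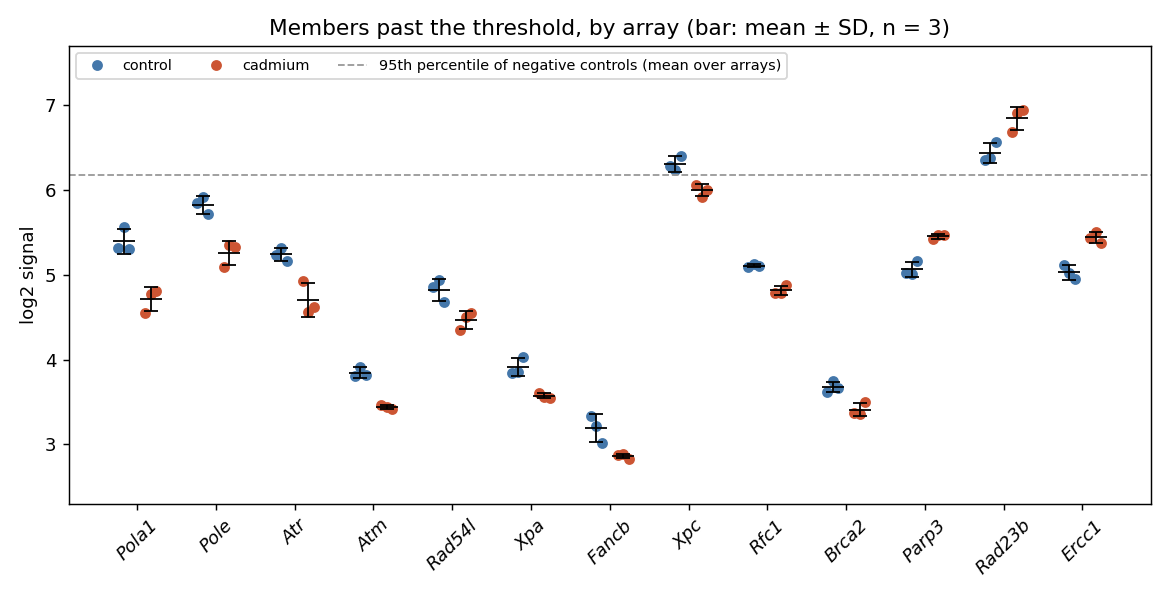
Log2 signal (vertical axis) of the 13 repair and replication genes past the threshold (horizontal axis, ordered by change), with 3 control arrays in blue, 3 cadmium arrays in orange, black bars for mean ± SD and a dashed line at the background bound of 6.18. The groups do not overlap in any of the 13 genes, and Rad23b is the gene with both means above the line.

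The groups did not overlap in 30 of the 60 genes, which is 50% against 35.9% of all genes and 40.3% of protein-coding genes. In 25 of the 30 the cadmium arrays were the lower ones. Cadmium arrays below all control arrays were found in 13.0% of all genes and in 17.8% of protein-coding genes.

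Among the 3 genes of damage kinases, checkpoint clamp and loader, 2 fell and 0 rose, against 5.72% lower and 6.47% higher over all genes. Those that fell were the kinase genes Atr and Atm. Atr, which responds to single-stranded DNA at stalled forks, read 5.23, 5.32 and 5.17 on the control arrays and 4.93, 4.56 and 4.62 on the cadmium arrays. Cadmium replicate 1 was thus the least reduced of the 3, and the groups did not overlap. The change was -0.54 ± 0.10 (SE, limma adjusted p = 0.016). With either of control replicates 1 and 2 left out it no longer passed, at 0.058 and 0.067, nor with either of cadmium replicates 2 and 3, at 0.059 and 0.067. Atm, the kinase for double-strand breaks, read 3.81, 3.92 and 3.82 in control and 3.47, 3.44 and 3.41 in cadmium arrays, a change of -0.41 ± 0.05 (SE, limma adjusted p = 0.0041). The cadmium arrays of Atm lay within 0.1 of each other. On every array Atm read below the median over genes and well below the background bound, where a small spread says little about the transcript. Rad9b, a paralogue of a subunit of the checkpoint clamp, was at 4.03 ± 0.06 and 4.14 ± 0.05 and did not pass.

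Among the 14 genes of replicative polymerases, clamp, clamp loader, RPA and ligase 1, 3 fell and 0 rose. Over all genes 5.72% fell and 6.47% rose. At an unadjusted p under 0.05 there were 4 of 14, all lower, where 29.0% of all genes and 30.3% of protein-coding genes reached this p in either direction, and 11.3% and 15.2% as lower ones. Pola1, the catalytic subunit of the polymerase that starts each new strand, read 5.32, 5.56 and 5.30 in control and 4.56, 4.77 and 4.81 in cadmium arrays. Pole, the catalytic subunit of the leading-strand polymerase, read 5.84, 5.92 and 5.71 against 5.10, 5.35 and 5.33. In both genes every cadmium array lay below every control array, and cadmium replicate 1 was the lowest. The changes were -0.68 ± 0.10 and -0.57 ± 0.09 (SE, limma adjusted p = 0.0059 and 0.0081). Rfc1, the large subunit of the clamp loader, read 5.10, 5.12 and 5.11 against 4.78, 4.79 and 4.88, a change of -0.29 ± 0.05 (SE, limma adjusted p = 0.012). Leaving out replicate 2 of either group ended its call, at 0.054 for the control and 0.053 for the cadmium array.

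The smaller partners of these subunits did not pass. Pole3 and Pole4, histone-fold subunits of the same polymerase as Pole, changed by 0.09 (95% interval -0.07 to 0.25) and by -0.06 (-0.16 to 0.05). Of the small clamp loader subunits, Rfc2 was at -0.02 (-0.15 to 0.11), Rfc3 at 0.05 (-0.08 to 0.19) and Rfc5 at -0.02 (-0.16 to 0.12). The pairing of large with small subunits was chosen after the values were seen, and no difference between them was tested.

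Pcna, the sliding clamp, read 4.92, 4.90 and 4.84 in control and 4.64, 5.08 and 5.02 in cadmium arrays. Cadmium replicate 1 lay below all control arrays and the other cadmium arrays above them, and the mean change was 0.03 (95% interval -0.24 to 0.29). Centring each array on its median gave -0.01, and leaving out cadmium replicate 1 gave 0.16. Lig1, which seals the pieces of the lagging strand, was at 5.84 ± 0.06 and 5.66 ± 0.05, without overlap, with an unadjusted limma p of 0.014 and an adjusted p of 0.081. Pold1 and Pold3, of the lagging-strand polymerase, changed by -0.12 each, and Rpa2 and Rpa3, which coat single-stranded DNA, by -0.01 and -0.08, and none of the 4 passed.

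The MCM helicase, which unwinds DNA ahead of the fork, and its GINS cofactor were represented by 9 genes. Of these, 0 passed limma at the adjusted threshold and 3 had an unadjusted p under 0.05. Over all genes 29.0% reached this p in either direction and 11.3% as lower ones, and 15.2% of protein-coding genes as lower ones. These 3 were Mcm6, Mcm3 and Gins3, all lower, at changes of -0.27 ± 0.07, -0.24 ± 0.07 and -0.18 ± 0.06 (SE, limma adjusted p = 0.057, 0.059 and 0.094). In Mcm6 the control arrays read 6.02, 6.12 and 6.01 and the cadmium arrays 5.65, 5.87 and 5.82, without overlap. Mcm2, the brightest gene of the complex, read 6.79, 6.76 and 6.59 against 6.35, 6.65 and 6.60 and overlapped. Mcm5 was at -0.03 (95% interval -0.28 to 0.22), and Mcm10, which helps to activate the helicase, at -0.0013 (-0.11 to 0.11).

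Cadmium replicate 1 was the lowest cadmium array in 18 of these 23 replication genes and in 34 of all 60 genes, or 56.7%, against 36.3% of all genes measured. Control replicate 3 was the lowest control array in 40 of the 60, or 66.7%, against 37.0% of all genes. These were also the arrays to which limma's array weights gave the least weight, 0.553 and 0.549 against 1.23 to 1.46 for the others. Without both arrays 15 members were called, 12 lower and 3 higher, and the count over all genes rose as well, from 2313 to 2894, or 15.3%. In RNA from whole cultures, fewer replicating cells and less RNA per cell cannot be told apart.

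**Figure D2:**
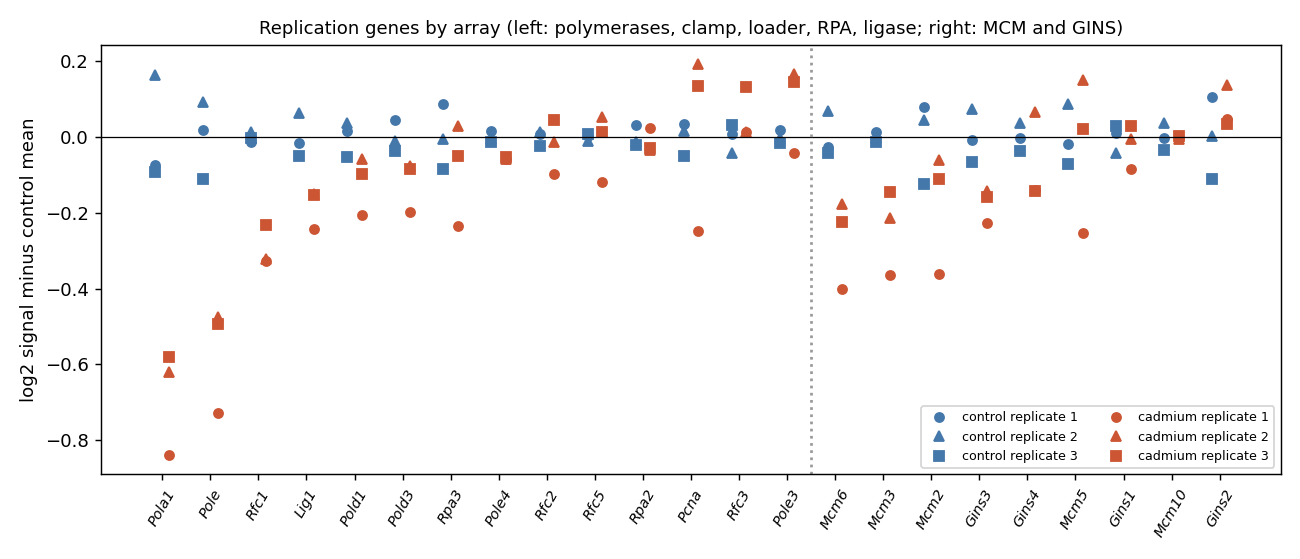
Log2 signal minus the control mean (vertical axis) for 23 replication genes (horizontal axis), 14 of polymerases, clamp, loader, RPA and ligase left of the dotted line and 9 of MCM and GINS right of it, with controls in blue, cadmium arrays in orange and a marker shape for each replicate. Cadmium replicate 1 (orange circles) is the lowest cadmium array in 18 of the 23, and Pola1, Pole and Rfc1 are the genes past the threshold.

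The promoters of these genes show what transcription factors could meet there. E2F proteins, which the retinoblastoma protein restrains, drive replication genes in dividing cells. The motifs TTTCCCGC, TTTGGCGC, TTTCGCGC and TTTGCCGC, which stand for E2F here, were searched on both strands in RefSeq windows (GRCm38.p6) of 300 bases, 250 before and 50 after the start. Windows were found for 51 of the 60 genes, and Pole was among the 9 without one. A match was present in 12 of the 51, or 23.5%, against 2.32% of 27025 promoters of all genes and 2.92% of 17492 protein-coding ones. Besides Pola1 and Brca2 these were Fancg, Gins3, Mcm3, Mcm5, Mcm6, Mcm8, Pold1, Pold3, Pole4 and Rfc3. By response, 2 of 8 genes that fell held a match, 0 of 3 that rose and 10 of 40 that did not pass. The 250 bases before the start are shown for Pola1 and Brca2, which fell and held a match, for Mcm6, which held 3 without passing, and for Ercc1 and Rad23b, which rose and held none. Capitals mark the E2F matches. The windows are chrX:93632156-93632405 on the minus strand, chr5:150522371-150522620 on the plus strand, chr1:128359706-128359955 on the minus strand, chr7:19344821-19345070 on the plus strand, and chr4:55349792-55350041 on the plus strand.
Pola1: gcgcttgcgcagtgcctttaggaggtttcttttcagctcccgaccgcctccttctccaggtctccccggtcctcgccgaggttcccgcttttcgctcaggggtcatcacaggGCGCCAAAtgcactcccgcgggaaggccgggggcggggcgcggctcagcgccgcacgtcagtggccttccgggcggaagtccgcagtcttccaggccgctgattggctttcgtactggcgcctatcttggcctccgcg
Brca2: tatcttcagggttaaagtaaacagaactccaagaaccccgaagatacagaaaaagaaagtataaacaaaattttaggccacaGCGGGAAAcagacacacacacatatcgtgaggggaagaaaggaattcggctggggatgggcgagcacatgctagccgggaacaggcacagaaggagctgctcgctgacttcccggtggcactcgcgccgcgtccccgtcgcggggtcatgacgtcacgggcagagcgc
Mcm6: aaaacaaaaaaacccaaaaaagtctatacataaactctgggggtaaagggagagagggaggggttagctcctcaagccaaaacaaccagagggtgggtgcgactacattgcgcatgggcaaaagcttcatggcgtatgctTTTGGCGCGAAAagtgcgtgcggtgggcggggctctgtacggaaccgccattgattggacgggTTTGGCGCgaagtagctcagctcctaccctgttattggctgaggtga
Ercc1: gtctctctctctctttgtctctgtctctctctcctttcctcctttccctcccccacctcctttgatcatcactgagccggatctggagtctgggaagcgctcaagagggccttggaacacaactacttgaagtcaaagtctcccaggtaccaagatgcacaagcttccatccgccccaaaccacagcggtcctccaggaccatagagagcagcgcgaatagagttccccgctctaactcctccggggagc
Rad23b: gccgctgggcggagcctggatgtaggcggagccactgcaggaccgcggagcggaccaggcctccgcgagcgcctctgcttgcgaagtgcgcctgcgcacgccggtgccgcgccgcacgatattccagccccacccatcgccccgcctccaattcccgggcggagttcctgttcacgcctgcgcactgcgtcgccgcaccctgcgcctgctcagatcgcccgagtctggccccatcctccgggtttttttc

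The match in Pola1 began 138 bases before the start and that in Brca2 168 bases before it, both on the opposite strand to the gene. In Mcm6 the matches began 110, 106 and 47 bases before the start, and the first 2 of them overlap on opposite strands. The CCAAT box, bound by NF-Y, stood in 29 of 51 member promoters, or 56.9%, against 37.9% of all promoters and 39.0% of protein-coding ones. The core of the metal response element, TGCACNC or TGCGCNC, to which the zinc-sensing factor Mtf1 binds, stood in 23 of 51, or 45.1%, against 25.6% and 29.1%. It was found in 3 of 8 genes that fell, in 2 of 3 that rose and in 18 of 40 that did not pass. These are letter matches, not sites of binding.

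Nucleotide excision repair had movements in both directions, with 2 of 6 genes lower and 2 higher. Over all genes 5.72% were lower and 6.47% higher. Xpc, which recognises the distorted helix, read 6.28, 6.23 and 6.41 in control and 6.06, 5.92 and 6.00 in cadmium arrays. The change was -0.31 ± 0.07 (SE, limma adjusted p = 0.027), and since the cadmium mean lay below the bound the level was at least 1.10-fold lower. Rad23b, the partner that stabilises Xpc, read 6.36, 6.38 and 6.57 against 6.69, 6.90 and 6.94. It rose 1.33-fold, by 0.41 ± 0.09 (SE, limma adjusted p = 0.028), with both means above the bound. Xpc and Rad23b thus moved in opposite directions, without overlap between the groups. Cetn2, of the same pathway but outside the symbol rule, was at 4.24 ± 0.02 and 4.31 ± 0.07. Its groups overlapped and it did not pass.

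Xpa, a zinc finger protein that checks the opened lesion, fell from 3.84, 3.85 and 4.03 to 3.61, 3.56 and 3.55, by 0.34 ± 0.07 (SE, limma adjusted p = 0.019). Ercc1, a subunit of the nuclease that cuts on the 5′ side of the lesion, rose from 5.12, 5.02 and 4.95 to 5.44, 5.51 and 5.38, by 0.41 ± 0.06 (SE, limma adjusted p = 0.0084). Ercc5, the nuclease of the other side, was at 4.39 ± 0.08 and 4.31 ± 0.09, and Ercc2, a helicase of TFIIH, at 4.10 ± 0.07 and 4.17 ± 0.13, and neither passed. A further array feature of Ercc2 also carried a microRNA and was not used. Among the called genes of this pathway Ercc1 kept its call without each array in turn. Xpa lost it with cadmium replicate 2 or 3 left out, at 0.069 and 0.072. Rad23b lost it with control replicate 1 or 2 left out, at 0.097 and 0.102, and with cadmium replicate 2 or 3 left out, at 0.09997 and 0.096. Xpc kept it only without cadmium replicate 1, at 0.032, and was otherwise at 0.052 to 0.094.

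Homologous recombination had 2 lower genes of 5 and 0 higher, against 5.72% lower and 6.47% higher over all genes. All 5 changes were below 0. Rad54l, a motor protein that moves along double-stranded DNA, read 4.86, 4.93 and 4.68 in control and 4.35, 4.50 and 4.55 in cadmium arrays, a change of -0.35 ± 0.09 (SE, limma adjusted p = 0.039). Brca2, a breast cancer susceptibility gene whose protein acts at broken DNA, read 3.62, 3.74 and 3.67 against 3.37, 3.36 and 3.49, a change of -0.27 ± 0.06 (SE, limma adjusted p = 0.032). The groups overlapped in neither gene, but each call was lost in 5 of the 6 fits that left out 1 array. Rad54l kept its call only without control replicate 3, at an adjusted p of 0.021, and was otherwise at 0.075 to 0.126. Brca2 kept it only without cadmium replicate 3, at 0.046, and was otherwise at 0.063 to 0.114. Rad52 and Mcm8, a helicase of recombination, were at -0.21 and -0.16 with unadjusted p of 0.027 and 0.023, and Rad51ap1 at -0.10, and did not pass.

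In the Fanconi anaemia pathway 1 of 6 genes fell, where 5.72% of all genes did. In 5 of 6, Fancb, Fanci, Fancd2, Fancf and Fanca, every cadmium array lay below every control array. The same was found in 13.0% of all genes and in 17.8% of protein-coding genes. Fancb, a subunit of the core ubiquitin ligase, read 3.34, 3.22 and 3.01 in control and 2.88, 2.88 and 2.83 in cadmium arrays, at a limma adjusted p of 0.0498. Its call was kept only without control replicate 3, at 0.011, and was otherwise lost at 0.089 to 0.146. Fanci and Fancd2, which form the clamp that this ligase modifies, had larger changes of -0.40 ± 0.11 and -0.36 ± 0.11 (SE) but a wider spread, and did not pass (limma adjusted p = 0.055 and 0.081). Control replicate 3 was the lowest control array of both. Fanca was at 4.54 ± 0.01 and 4.48 ± 0.02, and Fancg at 4.40 ± 0.07 and 4.38 ± 0.02, and neither passed.

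Base excision and single-strand break repair, taken as 1 group, had 1 higher gene of 5 and 0 lower. Over all genes 6.47% were higher. The higher gene was Parp3, and the 4 genes of base excision itself, the main route for oxidised bases, did not pass. Parp3, an ADP-ribosyltransferase that acts at strand breaks, read 5.02, 5.01 and 5.17 in control and 5.42, 5.47 and 5.47 in cadmium arrays, a rise of 0.39 ± 0.06 (SE, limma adjusted p = 0.0081). Ogg1, the glycosylase for oxidised guanine, read 5.48, 5.42 and 5.34 against 5.31, 5.32 and 5.34. Its change was -0.09 (95% interval -0.22 to 0.04) and the groups overlapped. Neil1 and Neil3, glycosylases for other oxidised bases, changed by 0.03 (-0.09 to 0.15) and -0.09 (-0.22 to 0.04), and the scaffold Xrcc1 by -0.03 (-0.14 to 0.09). Across these 4 genes the intervals ran from -0.22 to 0.15.

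The remaining roles had no gene past the threshold. For end joining, Xrcc5, which encodes the Ku80 subunit that holds broken ends, read 5.72, 5.74 and 5.72 in control and 5.46, 5.64 and 5.66 in cadmium arrays, without overlap (limma adjusted p = 0.207), and Lig4 was at 3.16 ± 0.08 and 3.15 ± 0.07. Rad18, a ubiquitin ligase that calls in translesion polymerases, was at 4.33 ± 0.02 and 4.23 ± 0.03, without overlap (limma adjusted p = 0.221). Msh4, a meiotic relative of the mismatch repair proteins and the 1 gene of that family analysed here, was at 2.40 ± 0.08 and 2.37 ± 0.06. Of the 4 other PARP-family genes, Parp12 was at 5.92 ± 0.07 and 6.06 ± 0.03 and Parp6 at 5.87 ± 0.05 and 5.68 ± 0.13, with unadjusted p of 0.037 and 0.045. The 4 genes taken by symbol alone, Ercc6l, Rad54l2, Fancd2os and Rad21l, changed by -0.15 to 0.09. In end joining, mismatch repair, translesion synthesis and these 4 genes, limma gave 0 genes with an unadjusted p under 0.05. Over all genes 29.0% reached this p in either direction, and 30.3% of protein-coding genes did. These roles hold few genes, and their shares were not tested against those.

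**Figure D3:**
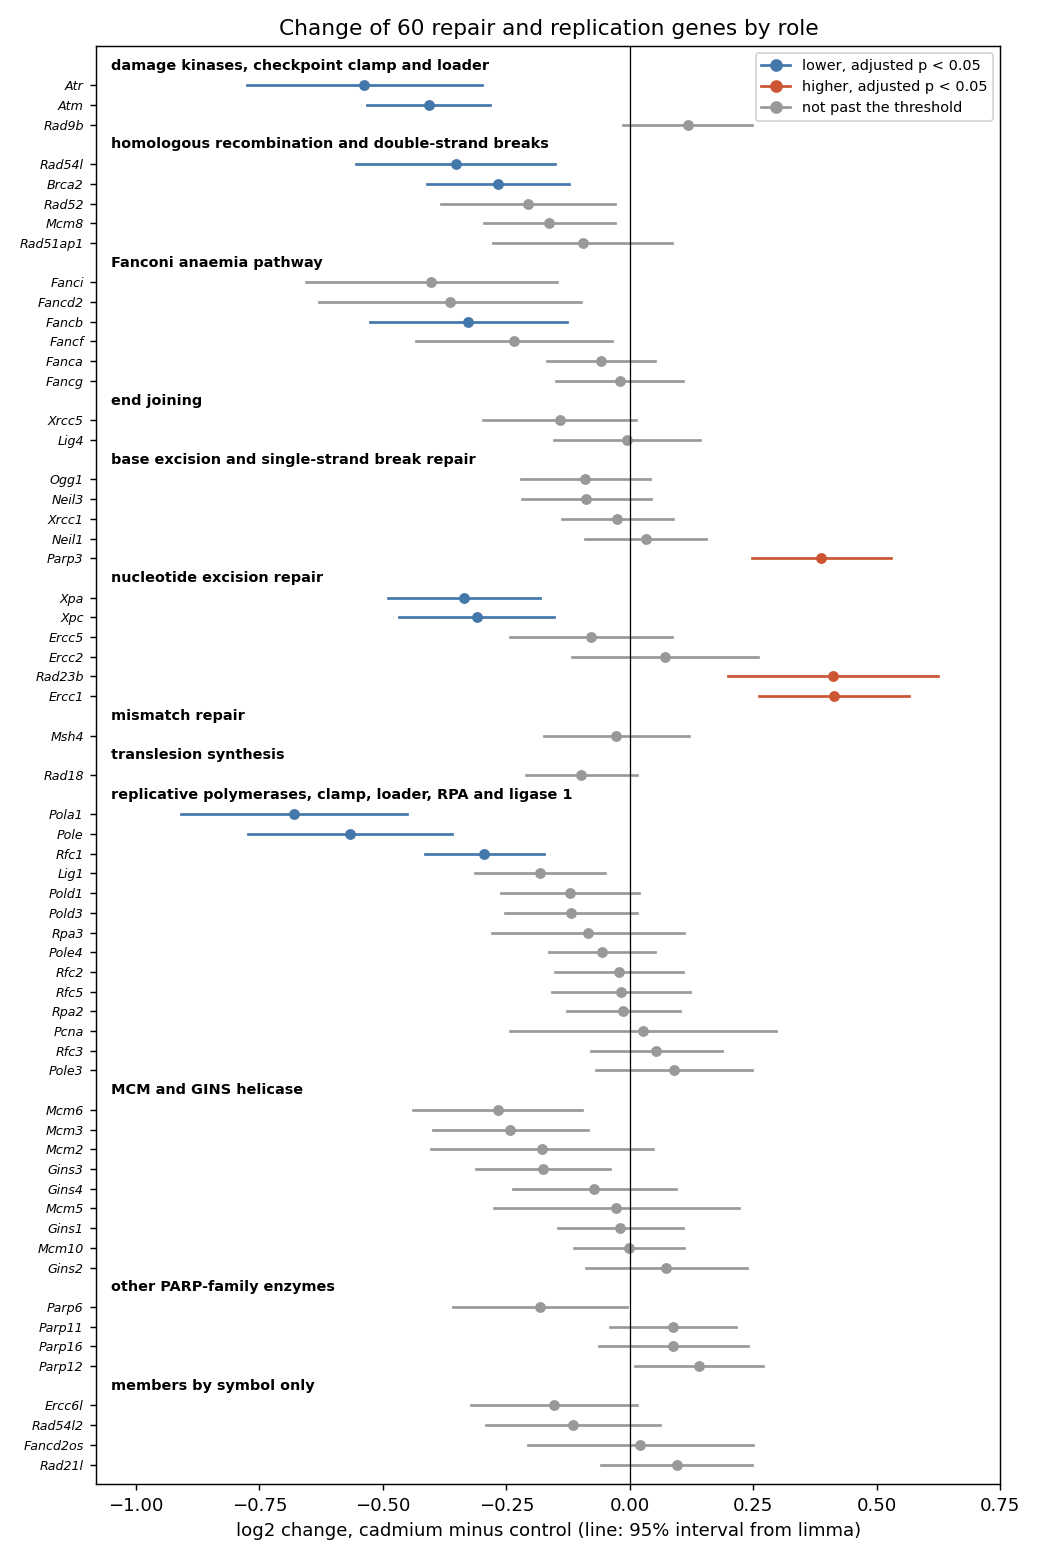
Log2 change, cadmium minus control (horizontal axis), of all 60 genes grouped by role (vertical axis), with a line for the 95% interval from limma, blue for genes that fell, orange for genes that rose and grey for genes that did not pass. Both kinase genes lie left of 0, and nucleotide excision repair has 2 genes that fell and 2 that rose.

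Other genes of the same pathways that the symbol rule does not take moved in a like proportion. They were read on the same arrays and listed with earlier results of these data known, so they are not independent support. Of 49 measured, 10 fell and 2 rose, which is 24.5% called and 20.4% lower, and the median change was -0.13. By comparison, 12.2% of all genes were called, 5.72% were lower and their median change was 0.04. When the brighter 9486 genes were tested alone, 24.3% of these were called and 12.4% were lower. The part of signal level in the share of the 49 was not tested. Gtf2h1, a subunit of the TFIIH complex that opens DNA in nucleotide excision repair and in transcription, had the lowest adjusted p of the 49. It read 6.05, 5.97 and 5.89 in control and 6.99, 7.27 and 7.22 in cadmium arrays, a rise of 1.19 ± 0.09 (SE, limma adjusted p = 0.0015), which is at least 1.97-fold with the control mean below the bound. Aptx, which mends aborted ligations, rose from 3.96 ± 0.02 to 4.24 ± 0.03. Its call was lost without cadmium replicate 3, at an adjusted p of 0.051.

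Of the genes that fell, Usp1, the enzyme that removes ubiquitin from the Fanconi clamp and from Pcna, went from 5.91 ± 0.07 to 5.33 ± 0.11, and Blm, a helicase of recombination, from 4.42 ± 0.09 to 3.91 ± 0.03. Rev1 and Rev3l, of translesion synthesis, changed by -0.42 ± 0.06 and -0.27 ± 0.05 (SE, limma adjusted p = 0.0049 and 0.020). Chek1, the kinase below Atr, changed by -0.26 ± 0.06 and Mre11a, the nuclease that opens broken ends, by -0.25 ± 0.05 (SE, limma adjusted p = 0.030 and 0.028). Gtf2h1, Usp1, Blm and Rev1 kept their calls without each array in turn. Rev3l lost it with control replicate 1 or 2 left out, at 0.053 and 0.078, and with cadmium replicate 3 left out, at 0.064. Chek1 and Mre11a kept theirs only without control replicate 3, and were otherwise at adjusted p of 0.052 to 0.109 and 0.056 to 0.103. Of the 12 calls in this list, 5 were kept with control replicate 1 or 2 left out, 6 with cadmium replicate 2 left out and 4 with cadmium replicate 3 left out.

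Targets of p53, the transcription factor that Atm and Atr act on and that large T antigen binds, had 2 higher and 1 lower gene of 11 measured. The activity of p53 was not tested. Called genes were 27.3% of the 11, against 12.2% of all genes. When the brighter 9486 genes were tested alone, 24.3% of these were called, with 6 p53 targets among them. The part of signal level in the share of the 11 was not tested. The change was above 0 in 9 and below 0 in 2 of them, against 11878 and 7094 of all 18972 genes. In 6 of the 11 every cadmium array lay above every control array, as in 22.9% of all genes. Gadd45a, Aen and Sesn2 were at 0.57, 0.19 and 0.49 without passing (limma adjusted p = 0.053, 0.054 and 0.066). Plk3, a stress kinase, rose from 5.26 ± 0.06 to 5.96 ± 0.25 and Btg2, an inhibitor of proliferation, rose 1.35-fold from 6.50 ± 0.04 to 6.93 ± 0.13. Sesn1, a stress-induced protein, fell from 4.75 ± 0.08 to 4.47 ± 0.05. The limma adjusted p-values were 0.012, 0.013 and 0.028. Plk3 lost its call with control replicate 1 or cadmium replicate 2 left out, at 0.051 and 0.053. Btg2 lost it with control replicate 1 or 2 left out, at 0.054 and 0.056, and with cadmium replicate 3 left out, at 0.055. Sesn1 kept it only with control replicate 3 left out, at 0.019, and was otherwise at 0.060 to 0.102.

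The genes that fell were longer, by their median, than the other members. The comparison by span was not planned beforehand, and these groups are defined by the calls. By the RefSeq annotation of GRCm38.p6, from first to last base of the gene, those that fell spanned a median of 49.5 kb, those that rose 12.5 kb and those that did not pass 21.1 kb. Pola1 spans 328 kb, Atm 99.7 kb, Atr 95.6 kb, Rfc1 76.8 kb and Pole 51.2 kb. Of the 13 members over 50 kb, 5 fell and 0 rose. Falls were also common in long genes at large. Of 1168 protein-coding genes spanning 60.3 to 112 kb, 217 fell and 58 rose, and of the 1168 longest, 175 fell and 53 rose. Among the 30 longest members 8 fell and 1 rose, with a median change of -0.13, and among the 30 shortest 2 fell and 2 rose, with a median change of -0.02. The longest were also brighter, at a median control level of 5.09 against 4.64, and these counts do not separate span from level. Across the 60 genes the change and the span had a Spearman correlation of -0.44. It was -0.38 to -0.47 when each array was left out in turn, and -0.01 against mean level in place of span. The points share the same 6 arrays and are not independent.

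The same sign was seen outside these genes. Over 11679 protein-coding genes the correlation was -0.13, and over the 49 other pathway genes -0.27. Protein-coding genes were sorted by span into 10 bins of equal size. In the shortest bin, of up to 1.60 kb, 3.77% were called and 25% of the calls were lower. In bin 9, from 60.3 to 112 kb, 23.5% were called and 78.9% of the calls were lower, and in the longest bin 19.5% and 76.8%. The median change was 0.04 in the shortest bin, 0.0029 in bin 9 and 0.04 in the longest. The part of signal level in these shares was not tested.

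**Figure D4:**
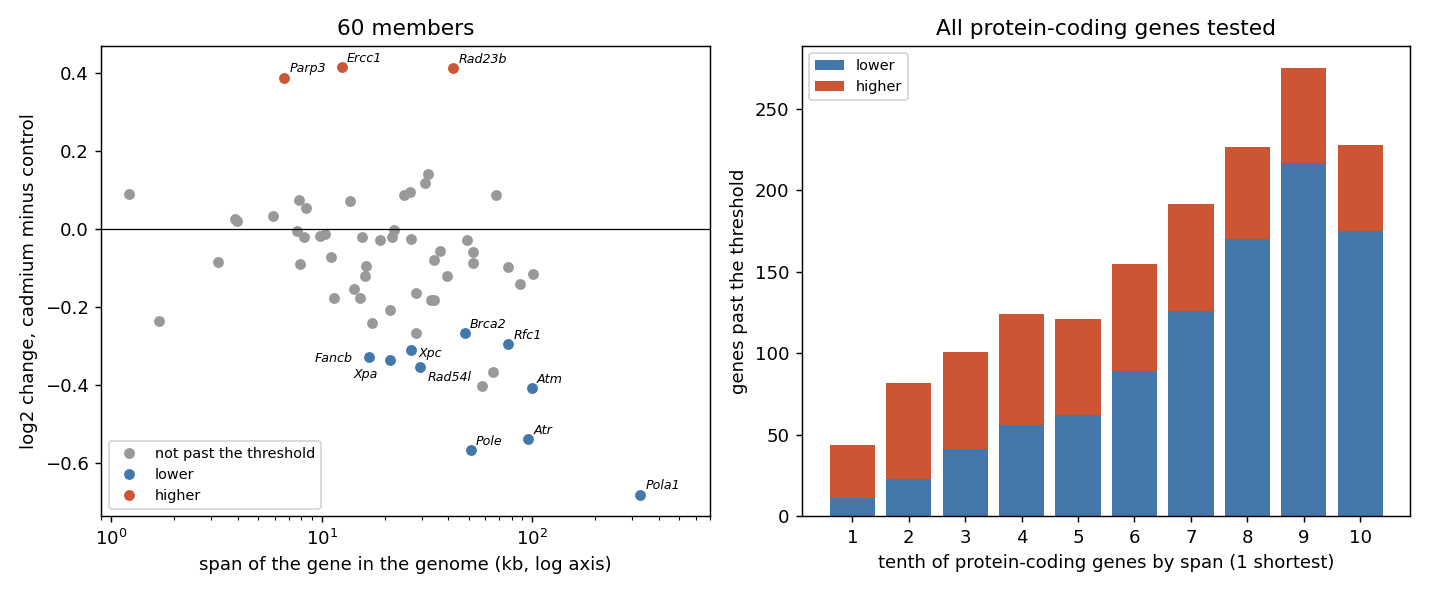
Left, log2 change, cadmium minus control (vertical axis), against the span of the gene in kb (horizontal log axis) for the 60 genes, blue where they fell, orange where they rose and grey where they did not pass. Right, the number of called protein-coding genes (vertical axis), lower in blue and higher in orange, in each of 10 bins of span (horizontal axis), where lower genes make up 25% of the calls in the shortest bin and 76.8% in the longest.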

How the data were processed

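The log2 values were deposited by the authors as 1 value per transcript cluster and array. Their scale is inferred from the range of the values. For background correction, normalization and software, nothing is stated (not given in the sources used here). No further scaling was applied. The table had 39746 transcript clusters and 6732 control rows, with 0 columns left unmapped. Gene names came from the platform annotation, updated through RefSeq (GRCm38.p6). Of the clusters 19205 had 1 gene and 940 had several, which were not named. The brightest probe stood for a gene, and each of the 60 members had 1 probe.

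The comparison used limma 3.58.1 under R 4.3.3, with a linear model holding the group alone, moderated variances (eBayes) and two-sided p-values adjusted over 18972 genes at a threshold of 0.05. The members and lists were chosen with earlier results of these data known. Named genes were all members past the threshold, those the rule names singly, the brightest and most changed member of each role, 8 other pathway genes, 3 p53 targets and Ins2 and Pdx1. Others named in the report, such as the small polymerase subunits, were chosen after their values were seen. A fold is given where a group mean was above the background bound, as a lower limit where 1 mean was below it, with each dimmer array raised where needed to its negative controls' 95th percentile. Table rows cover chromosomes 1 to 9, X, Y, the mitochondrial chromosome and part of 10. Other chromosomes are not analysed here. Figures were drawn with matplotlib 3.10.9.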

Additional observations from a re-analysis of the deposited data

How the results depend on the processing

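All 13 called members kept their calls with arrays centred on their medians, after quantile normalization, with probes averaged, with an intensity trend and with array weights, and member counts there were 13 to 17. Array weights raised the count over all genes too, to 3395 or 17.9%. Centring lowered the share of higher genes among all calls from 53.05% to 38.0%, and among called members from 23.1% to 17.6%. A threshold of 0.01 left 5 members, 868 genes in all, 4 other pathway genes and 0 p53 targets. Array weights gave 19 other pathway genes and 6 p53 targets, and a filter at the median level, which kept 42 members, gave 6 p53 targets and 12 members. Of the 13 calls 9 remained there, since Atm, Brca2, Fancb and Xpa lay below the median level. Without both low-weight arrays, an alternative chosen after seeing the data, 5 p53 targets passed. Counts without each array in turn ranged from 5 to 13 for members, 1142 to 2361 for all genes, 4 to 11 for other pathway genes and 0 to 5 for p53 targets. Whether replicate numbers pair the arrays is not stated. Deviations of same-numbered arrays from their group means correlated at -0.108, 0.0566 and -0.108, which cannot settle it with so few arrays in each group. With the replicate number as a block 8 members, 1388 genes and 4 other pathway genes passed.

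Signs turned in genes that did not pass. With centring, Pcna was at -0.014, Ins2 at -0.019 and Pdx1 at -0.0041, and Pdx1 at -0.0017 after quantile normalization. Leaving out 1 array in turn gave -0.056 to 0.16 for Pcna, -0.062 to 0.016 for Msh4, -0.027 to 0.071 for Ins2 and -0.0055 to 0.086 for Pdx1. With 55 of 60 members below the bound, signal over background limits the size of change that can be read.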
